A study of Sus scrofa with 12 samples.

Results

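The 66 genes described here code for collagens, laminins, integrins and the glycoproteins, proteoglycans and enzymes that build the extracellular matrix around them. They were taken by symbol from the table of gene counts, as the rows whose names belong to these families, leaving out COL1A1, and they are 66 of 30461 gene rows. The table gave a symbol for 13259 of its rows, so family members on the other rows were not analysed here. RNA came from pig oviduct epithelial cells in 12 libraries, 4 for each of 3 groups. Fresh cells were scraped from the oviduct and taken as single cells. The other groups were spheroids, 3-dimensional clusters of these cells formed in culture, in DMEM/F12 medium (library names carrying FBS) or in a medium the labels call Incubation Medium (library names carrying Diff). The labels state no breed, age, cycle stage, culture time, medium composition or number of animals for any group. Nothing in them says that replicates came from separate animals, so p-values measure only the spread between these libraries, which may be technical.

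Epithelial cells rest on a basement membrane, a sheet in which laminin and type IV collagen networks are held together. The stroma beneath holds fibrillar collagens and elastic fibres, and these are made largely by fibroblasts. Collagen chains are hydroxylated in the endoplasmic reticulum by prolyl and lysyl hydroxylases before they assemble into trimers, and lysyl oxidases crosslink them outside the cell. Integrins are receptors of an alpha and a beta subunit that bind matrix proteins and link them to the actin cytoskeleton. Several, among them pairs of ITGAV with ITGB3, ITGB5 or ITGB6 and of ITGA5 with ITGB1, recognise fibronectin or related ligands.

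Levels are given as CPM, the count of a gene scaled to a common library size, on sizes scaled by the TMM method. They are compared between groups within a gene, not between genes. Library totals ranged from 5045187 to 8603774 counts. A gene with no count in a library could still have been present at up to 3 counts, which was 0.348 to 0.588 CPM. The epithelial label was checked against 8 markers, of which 5 symbols were found, in 6 rows. By the test described below, 5 rows rose and 1 fell in DMEM/F12 against fresh cells, beside 35.1% and 35.7% of all genes tested. In incubation medium 4 rose and 1 fell, beside 35.8% and 35.8%. KRT8 had 2 rows, 1 of them at no more than 0.374 CPM in any fresh cell library, and both rows rose in both media. CLDN4 rose in DMEM/F12 and fell in incubation medium, and EPCAM fell in DMEM/F12. EPCAM lay at 777 to 1049 CPM in fresh cells, 513 to 804 in DMEM/F12 spheroids and 596 to 929 in incubation medium spheroids, and CDH1 at 381 to 434, 1142 to 1352 and 552 to 674. The 66 genes together took 0.306 to 0.339% of the counts in fresh cell libraries, 0.2496 to 0.282% in DMEM/F12 spheroids and 0.184 to 0.204% in incubation medium spheroids, with no overlap between the groups. Markers of epithelial cell types also differed. In the same order of groups, 4 marker rows of multiciliated cells summed to 926 to 1052 CPM, 111 to 279 and 104 to 196. The 5 rows of oviduct secretory cells summed to 19564 to 30630.1, 1164 to 2219 and 1221 to 2338. OVGP1 made up most of the secretory sum in fresh cells (15908 to 26172 CPM). By the test described below, 3 of the 5 fell and 1 rose in each medium. Of all genes tested, 35.7% fell and 35.1% rose in DMEM/F12, and 35.8% fell and 35.8% rose in incubation medium. The 1 secretory marker that rose was MUC1, at 144 to 179 CPM, 484 to 595 and 458 to 508. WT1, the 1 mesothelial marker with a row, was at 186 to 237, 134 to 186 and 113 to 137 CPM. The part of these shifts in the results was not tested. Fewer cells of a type and less RNA per cell cannot be told apart in such bulk libraries.

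Of the 66 genes 47 passed the filter on low counts, and edgeR's quasi-likelihood test was adjusted over all 14070 genes tested. A gene was called where its adjusted p was under 0.05. In DMEM/F12 spheroids against fresh cells 36 of the 47 were called, 15 higher and 21 lower, against a background of 70.7% of all genes tested (35.1% higher and 35.7% lower). In incubation medium spheroids against fresh cells 32 were called, 10 higher and 22 lower, against a background of 71.7% (35.8% higher and 35.8% lower). The share called, 76.6% and 68.1%, was near the background in both. All 4 libraries of one group lay outside the range of the other for 32 genes in DMEM/F12 and 30 in incubation medium, beside 65.4% and 65.0% of all genes tested. The median absolute log2 fold change of the 47 genes was 1.47 and 1.25, beside 0.69 and 0.72 for all genes tested. The 47 were chosen with earlier results of these data known, and the background was not matched to them in abundance. The larger medians are therefore a description and were not tested. Signed medians were -0.26 and -0.39, beside -0.01 and -0.01. Changes called at 2-fold or more numbered 11 higher and 18 lower in DMEM/F12, where the background was 15.1% and 20.3%, and 8 higher and 17 lower in incubation medium, where it was 15.3% and 21.5%. Both comparisons used the same fresh cell libraries. Their values are given side by side, and a difference between the media rests on the direct comparison of the 2 spheroid groups.

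**Figure D1:**
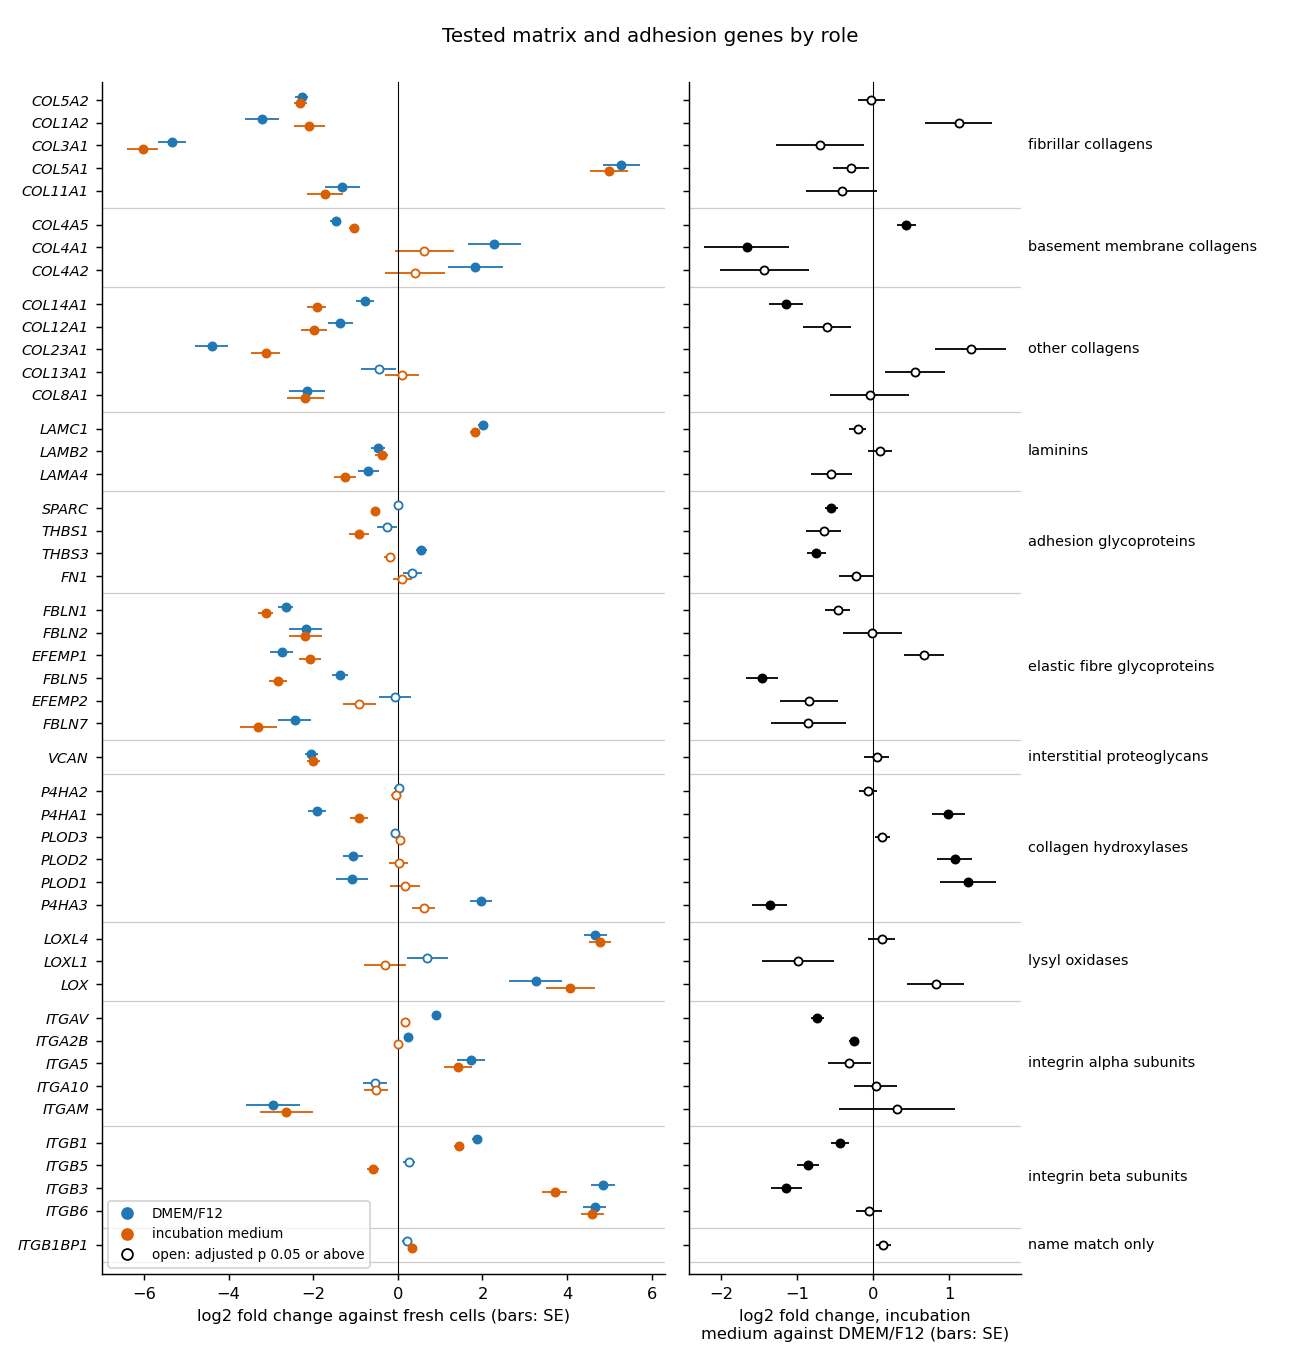
Log2 fold changes of 46 of the 47 tested genes, grouped by role, with standard errors as bars. The left panel shows each medium against fresh cells (DMEM/F12 blue, incubation medium orange) and the right panel incubation medium against DMEM/F12; filled points have an adjusted p under 0.05. ITGB1, ITGB3, ITGB6, LAMC1 and LOXL4 lie to the right of 0 on the left panel and most interstitial collagens and elastic fibre genes to the left, with COL5A1 an exception; the fitted values of COL5A1 and LOX depend on the prior count, since fresh cells held almost no counts of them.

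The largest rises among the integrins were those of beta subunits. Of 5 rows 4 were tested: 3 rose in both media, while ITGB5 was not called in DMEM/F12 and fell in incubation medium. ITGB3 (ENSSSCG00025026688), the beta subunit of the platelet fibrinogen receptor that also pairs with ITGAV, was at 2.61, 4.72, 1.496 and 2.22 CPM in fresh cell replicates 1 to 4. It was at 72.1, 71.6, 105 and 70.2 CPM in DMEM/F12 spheroids and 36.4, 31.2, 50.1 and 26.6 CPM in incubation medium spheroids. All 3 groups were separate, with DMEM/F12 highest and fresh cells lowest. The rise over fresh cells was 28.8-fold in DMEM/F12 (log2 fold change 4.85, SE 0.29, adjusted p = 3.93e-09) and 13.1-fold in incubation medium (log2 fold change 3.71, SE 0.29, adjusted p = 6.18e-08). The media differed 2.21-fold (log2 fold change -1.14, SE 0.20, adjusted p = 0.00102). Fractional counts of ITGB3, as when a read is split between features, occurred in 58.3% of libraries, so its level is uncertain.

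ITGB6 (ENSSSCG00025031879), an epithelial subunit whose pair with ITGAV activates latent TGF-beta, was at 1.04, 1.79, 0.935 and 0.588 CPM in fresh cells. The DMEM/F12 spheroids were at 26.4, 21.1, 38.4 and 26.7 CPM and the incubation medium spheroids at 31.7, 23.8, 28.2 and 24.3 CPM. Every spheroid library was far above every fresh cell library, and the media overlapped. The rise was 25.1-fold in DMEM/F12 (log2 fold change 4.65, SE 0.28, adjusted p = 3.99e-09) and 24.2-fold in incubation medium (log2 fold change 4.60, SE 0.28, adjusted p = 4.49e-09), and the media were not called different (log2 fold change -0.06, SE 0.17, adjusted p = 0.854). ITGB1 (ENSSSCG00025002241), the beta subunit shared by most collagen, laminin and fibronectin receptors, was at 111, 109, 131 and 123 CPM in fresh cells. It was at 402, 371, 560.0 and 406 CPM in DMEM/F12 spheroids and 324, 322, 329 and 308 CPM in incubation medium spheroids. The 3 groups did not overlap, and the order was the same as for ITGB3. ITGB1 rose 3.67-fold in DMEM/F12 (adjusted p = 6.94e-09) and 2.71-fold in incubation medium (adjusted p = 7.72e-08), and was 1.35-fold lower in incubation medium than in DMEM/F12 (adjusted p = 0.0115).

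ITGB5, a subunit of a vitronectin receptor with ITGAV, was at 59.4, 52.9, 41.9 and 60.4 CPM in fresh cells, 80.4, 56.9, 62.3 and 57.8 CPM in DMEM/F12 and 43.2, 31.9, 33.5 and 33.2 CPM in incubation medium. The spheroid groups were separate from each other, and both overlapped the fresh cells. ITGB5 fell in incubation medium against fresh cells (log2 fold change -0.60, SE 0.14, adjusted p = 0.00198) and against DMEM/F12 (log2 fold change -0.86, SE 0.14, adjusted p = 0.000616). Against fresh cells in DMEM/F12 it was not called (log2 fold change 0.26, SE 0.14, adjusted p = 0.111), and it was called with the replicate number as a block (log2 fold change 0.26, adjusted p = 0.0284).

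**Figure D2:**
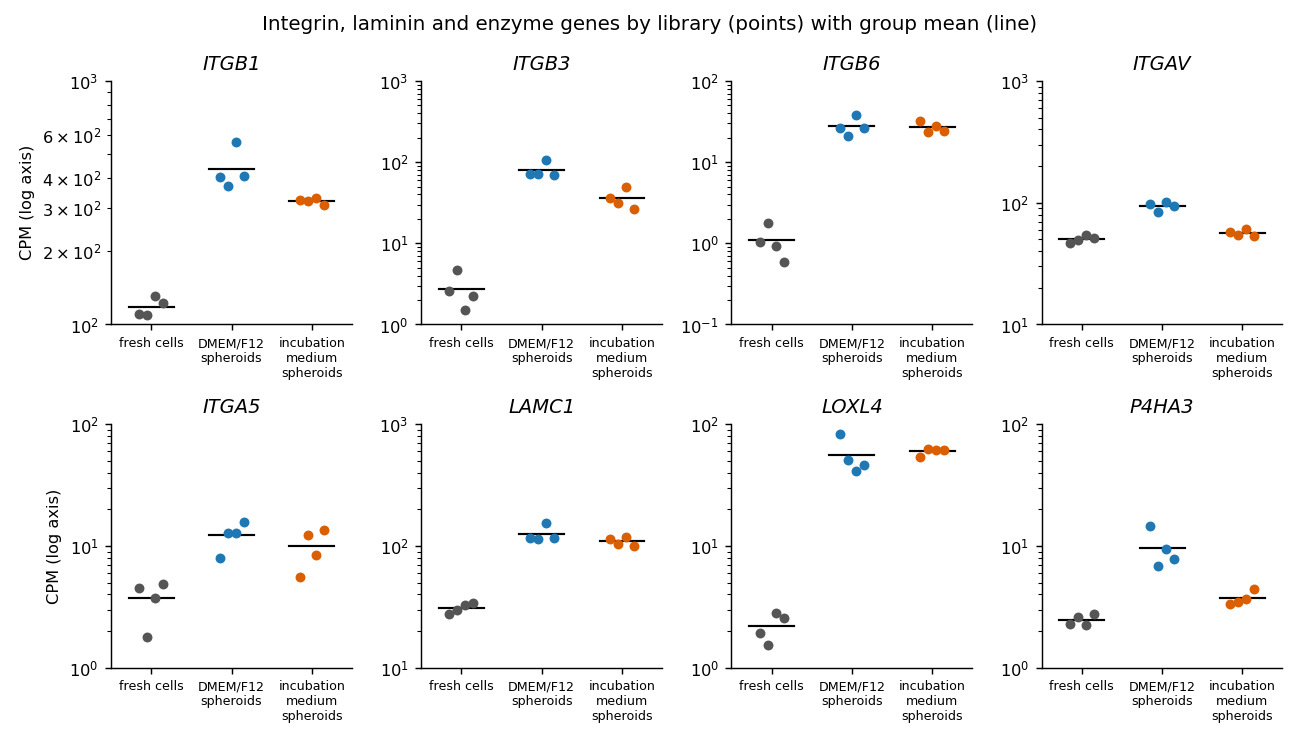
CPM on log axes of 8 genes in each library (points, replicates 1 to 4 from left to right within a group) with the group mean as a line. ITGB3, ITGB6 and LOXL4 are below 5 CPM in all 4 fresh cell libraries and above 20 CPM in all 8 spheroid libraries; ITGAV and P4HA3 are highest in DMEM/F12.

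Integrin alpha subunits were mixed. Of 6 rows 5 were tested: 3 rose and 1 fell in DMEM/F12, and 1 rose and 1 fell in incubation medium. ITGAV (ENSSSCG00025070091), the alpha subunit that pairs with ITGB3, ITGB5 and ITGB6, was at 47.0, 49.7, 54.6 and 51.3 CPM in fresh cells, 97.1, 83.4, 102 and 94.9 CPM in DMEM/F12 and 57.5, 54.2, 61.2 and 53.6 CPM in incubation medium. Only the DMEM/F12 libraries stood apart from both other groups. ITGAV rose 1.86-fold in DMEM/F12 (log2 fold change 0.90, SE 0.08, adjusted p = 3.39e-07) and was not called in incubation medium (log2 fold change 0.16, SE 0.09, adjusted p = 0.104), and the media differed (log2 fold change -0.74, SE 0.08, adjusted p = 3.23e-05). ITGA5 (ENSSSCG00025055937), the fibronectin receptor subunit, was at 4.53, 1.79, 3.74 and 4.90 CPM in fresh cells, 8.03, 12.9, 12.8 and 15.8 CPM in DMEM/F12 and 5.61, 12.4, 8.49 and 13.6 CPM in incubation medium. Every spheroid library lay above every fresh cell library, with rises of 3.32-fold (adjusted p = 0.000289) and 2.67-fold (adjusted p = 0.00159). The media overlapped (log2 fold change -0.31, SE 0.28, adjusted p = 0.462).

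ITGA2B, which in platelets pairs with ITGB3, was at 48.8 to 55.6 CPM in fresh cells, 60.5 to 63.3 CPM in DMEM/F12 and 49.9 to 53.0 CPM in incubation medium. Its rise in DMEM/F12 was 1.19-fold (adjusted p = 0.00479), with no overlap between the groups, and its counts were fractional in 50% of libraries. The collagen receptor subunit ITGA10 was not called in either medium (log2 fold change -0.55, SE 0.28, adjusted p = 0.0943, and log2 fold change -0.52, SE 0.28, adjusted p = 0.111). Without fresh cell replicate 1 it was called in both (log2 fold change -0.71, adjusted p = 0.0373, and -0.68, adjusted p = 0.0445), and without DMEM/F12 replicate 1 in DMEM/F12 (-0.79, adjusted p = 0.0223). ITGAM, the alpha subunit of a receptor of myeloid leukocytes, was at 5.74, 10.04, 4.86 and 6.86 CPM in fresh cells, 0.426, 2.56, 0.132 and 0.2401 CPM in DMEM/F12 and 0.597, 2.80, 0.492 and 0.537 CPM in incubation medium. Fresh cells were above both media in every library, with falls of 7.72-fold (adjusted p = 0.000912) and 6.23-fold (adjusted p = 0.00176). The spheroid means came largely from replicate 2 of each medium, and no spheroid library held more than 22 counts. DMEM/F12 replicates 3 and 4 were under 3 counts, so the size of the falls is uncertain. Of 8 leukocyte markers 3 had a row and 2 were tested. Both (AIF1 and PTPRC) fell in both media, beside 35.7% of all genes tested in DMEM/F12 and 35.8% in incubation medium. The 3 marker rows summed to 15.2 to 21.7 CPM in fresh cells, 2.94 to 10.4 in DMEM/F12 and 3.58 to 9.61 in incubation medium. None of them was at 0 in every library of a group, and their part in the fall of ITGAM was not tested.

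Basement membrane genes went both ways. In the laminin and nidogen group, 4 of 6 rows were tested. LAMC1 rose in both media, and LAMB2 and LAMA4 fell in both. LAMC1 (ENSSSCG00025026521), the gamma chain of most laminins, was at 27.8, 29.6, 32.9 and 33.9 CPM in fresh cells. It was at 117, 113, 156 and 117 CPM in DMEM/F12 spheroids and 114, 103, 118 and 100.2 CPM in incubation medium spheroids. No spheroid library overlapped the fresh cells, and the media overlapped. LAMC1 rose 4.05-fold (log2 fold change 2.02, SE 0.12, adjusted p = 3.22e-09) and 3.51-fold (log2 fold change 1.81, SE 0.12, adjusted p = 8.06e-09).

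LAMB2, a beta chain, and LAMA4, an alpha chain known from vessels and muscle, fell. LAMB2 was at 58.5 ± 7.86 CPM in fresh cells, 42.2 ± 5.84 in DMEM/F12 and 44.7 ± 10.3 in incubation medium (SD, n = 4 each, as for every mean below), with log2 fold changes of -0.47 (adjusted p = 0.0163) and -0.39 (adjusted p = 0.0413). The LAMB2 calls were lost without single libraries. In DMEM/F12 the LAMB2 call was lost without fresh cell replicate 3 (-0.40, adjusted p = 0.0555) and without DMEM/F12 replicate 2 (-0.36, adjusted p = 0.0657). In incubation medium it was lost without fresh cell replicate 1 (-0.37, adjusted p = 0.0777), 3 (-0.31, adjusted p = 0.124) or 4 (-0.38, adjusted p = 0.0735) and without incubation medium replicate 2 (-0.24, adjusted p = 0.151) or 3 (-0.34, adjusted p = 0.104), and with no filter on low counts (-0.32, adjusted p = 0.0741). LAMA4 was at 7.95 ± 1.18 CPM, 4.86 ± 1.28 and 3.35 ± 1.219, with log2 fold changes of -0.70 (adjusted p = 0.0237) and -1.25 (adjusted p = 0.000687). The LAMA4 call in DMEM/F12 was lost without fresh cell replicate 1 (-0.59, adjusted p = 0.0753), DMEM/F12 replicate 1 (-0.60, adjusted p = 0.0682) or DMEM/F12 replicate 3 (-0.57, adjusted p = 0.0711).

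Type IV collagen chains, which form the basement membrane network, were all tested (3 of 3 rows). COL4A5 (ENSSSCG00025002201) fell in both media. It was at 25.1, 29.1, 25.8 and 33.1 CPM in fresh cells, 10.9, 9.41, 8.87 and 11.4 CPM in DMEM/F12 and 14.6, 13.2, 13.4 and 13.8 CPM in incubation medium. The 3 groups were separate, with falls of 2.77-fold (adjusted p = 9.62e-08) and 2.05-fold (adjusted p = 2.48e-06). Incubation medium was 1.35-fold above DMEM/F12 (adjusted p = 0.0191), a call lost without DMEM/F12 replicate 2 (0.40, adjusted p = 0.0562) or 3 (0.38, adjusted p = 0.0530) and with library totals in place of TMM (0.34, adjusted p = 0.0714).

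COL4A1 (ENSSSCG00025074776) and COL4A2 (ENSSSCG00025075654), neighbours among protein-coding genes in the RefSeq table of Sscrofa11.1 whose chains assemble together, followed another pattern. COL4A1 was at 2.26, 0.179, 1.68 and 1.57 CPM in fresh cells, 13.9, 2.904, 6.09 and 5.16 CPM in DMEM/F12 and 4.18, 0.400, 1.97 and 2.15 CPM in incubation medium. COL4A2 was at 2.78, 0.897, 0.187 and 2.94 CPM, 13.1, 2.09, 3.18 and 5.88 CPM and 3.10, 0.801, 2.34 and 2.69 CPM. In DMEM/F12 replicate 1 was the highest of its group for both genes and replicate 2 the lowest. Both rose in DMEM/F12 (COL4A1 log2 fold change 2.28, SE 0.63, adjusted p = 0.00488; COL4A2 log2 fold change 1.83, SE 0.65, adjusted p = 0.0207), and neither was called in incubation medium (COL4A1 0.62, adjusted p = 0.440; COL4A2 0.40, adjusted p = 0.630). The COL4A2 call was lost without fresh cell replicate 2 (1.62, adjusted p = 0.0588), fresh cell replicate 3 (1.46, adjusted p = 0.0559) or DMEM/F12 replicate 1 (1.14, adjusted p = 0.102). Between the media COL4A1 was called lower in incubation medium (log2 fold change -1.66, SE 0.56, adjusted p = 0.0422) and COL4A2 was not (log2 fold change -1.43, SE 0.59, adjusted p = 0.0918). With the replicate block COL4A2 was called too (-1.34, adjusted p = 0.00470), and it was called without DMEM/F12 replicate 2 (-1.72, adjusted p = 0.0473). The COL4A1 call between the media was lost without DMEM/F12 replicate 1 (-1.09, adjusted p = 0.173), 3 (-1.72, adjusted p = 0.0595) or 4 (-1.78, adjusted p = 0.0535) and without incubation medium replicate 2 (-1.32, adjusted p = 0.0998), 3 (-1.61, adjusted p = 0.0925) or 4 (-1.65, adjusted p = 0.0764), and with only these groups in the fit (-1.66, adjusted p = 0.0547).

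Fibrillar collagens, the ropes of the interstitial matrix, were mostly lower in spheroids. Of 6 rows 5 were tested: 4 fell and 1 rose in each medium. COL3A1 (ENSSSCG00025064886), the single chain of type III collagen, was at 27.7, 23.1, 14.2 and 31.4 CPM in fresh cells. It was at 0.851, 0.581, 0.265 and 0.600 CPM in DMEM/F12 and 0.239, 0.534, 0.123 and 0.537 CPM in incubation medium. Fresh cells were far above both media, and several spheroid libraries were at or under 3 counts. The falls were 40.4-fold (log2 fold change -5.33, SE 0.34, adjusted p = 7.06e-09) and 65.5-fold (log2 fold change -6.03, SE 0.37, adjusted p = 4.94e-09). COL5A2 (ENSSSCG00025066689), its neighbour in the RefSeq table and a chain of type V collagen, was at 41.4, 35.0, 34.2 and 37.2 CPM in fresh cells, 7.42, 8.13, 5.56 and 9.25 CPM in DMEM/F12 and 8.35, 6.41, 6.03 and 9.13 CPM in incubation medium. It fell 4.85-fold (adjusted p = 2.04e-08) and 4.94-fold (adjusted p = 1.93e-08), and the media overlapped.

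COL5A1 (ENSSSCG00025037158), the partner chain of COL5A2 in type V collagen, went the other way. Fresh cells held 5 counts of it over 4 libraries, with no more than 2 in any. DMEM/F12 spheroids were at 10.1, 8.13, 10.7 and 9.61 CPM and incubation medium spheroids at 7.16, 4.81, 8.12 and 11.4 CPM, all above all fresh cell libraries. Summed counts were set against those of fresh cells per TMM-scaled library size. The ratio was 41.8 in DMEM/F12 (95% exact interval 17.7 to 129.6, counting error only) and 34.2 in incubation medium (14.5 to 106). The rises were called (adjusted p = 8.55e-08 and 1.82e-07). COL1A2 (ENSSSCG00025027200), a chain of type I collagen, was at 8.70, 28.2, 27.5 and 11.2 CPM in fresh cells, 1.58, 2.32, 2.78 and 1.44 CPM in DMEM/F12 and 4.65, 6.27, 3.82 and 2.96 CPM in incubation medium. It fell 9.27-fold (log2 fold change -3.21, SE 0.40, adjusted p = 6.19e-06) and 4.26-fold (log2 fold change -2.09, SE 0.37, adjusted p = 0.000146). Every incubation medium library lay above every DMEM/F12 library, which was not called (log2 fold change 1.12, SE 0.44, adjusted p = 0.0758) but was called with the replicate block (1.15, adjusted p = 0.00959). COL11A1, a minor fibril chain, was at 2.68 ± 1.03 CPM in fresh cells, 1.06 ± 0.556 and 0.796 ± 0.341 in the media, and fell in both (adjusted p = 0.0107 and 0.00244).

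Stromal markers were measured beside these collagens. Of 10 listed genes, COL1A1 among them, 8 had a row and 6 were tested. In DMEM/F12 3 were higher and 1 lower than in fresh cells, beside 35.1% and 35.7% of all genes tested. In incubation medium 2 were higher and 4 lower than in fresh cells, beside 35.8% and 35.8%. Between the media none was higher and all 6 were lower in incubation medium, each at least 2-fold (median log2 fold change -2.62). Of all genes tested 12.3% were lower there and 3.38% at 2-fold or more, and of the 47 matrix genes 11 were lower. The marker list was chosen with earlier results of these data known, so its calls are no independent measure of stroma. The 8 marker rows summed to 1426 to 1928 CPM in fresh cells, 134 to 245 in DMEM/F12 and 20.4 to 27.7 in incubation medium. MGP, a mineralisation inhibitor, made up most of this sum in fresh cells (1612 ± 293 CPM, against 35.6 ± 28.8 and 6.84 ± 0.994). DKK3 and THY1 rose, from 0.192 ± 0.277 and 0.268 ± 0.299 CPM in fresh cells to 43.6 ± 6.81 and 22.9 ± 15.2 in DMEM/F12 and 3.13 ± 0.754 and 5.13 ± 1.93 in incubation medium. None of the 8 was at 0 in every library of a group. Of 7 smooth muscle markers 5 had a row, summing to 199.5 to 334 CPM, 1048 to 1191 and 228 to 533, and DES was at 0 in every fresh cell library. TAGLN made up most of this sum and rose in both media. CNN1 fell in both (6.02-fold, adjusted p = 0.000281, and 6.21-fold, adjusted p = 0.000262), and ACTA2 and ACTG2 were not called against fresh cells. Of 8 endothelial markers 7 had a row, summing to 45.8 to 61.2 CPM, 144 to 258 and 98.7 to 164, and VWF was at 0 in every fresh cell and DMEM/F12 library. Of the 5 tested, 2 were higher and 1 lower in DMEM/F12, and 4 higher and 1 lower in incubation medium. The shares of all genes tested beside these counts are those given for the stromal markers against fresh cells. CDH5 and KDR rose in both media, while PECAM1 fell in both (log2 fold change -0.93, adjusted p = 2.01e-05, and -0.91, adjusted p = 2.48e-05). The part of these cell types in the changes of the matrix genes was not tested.

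**Figure D3:**
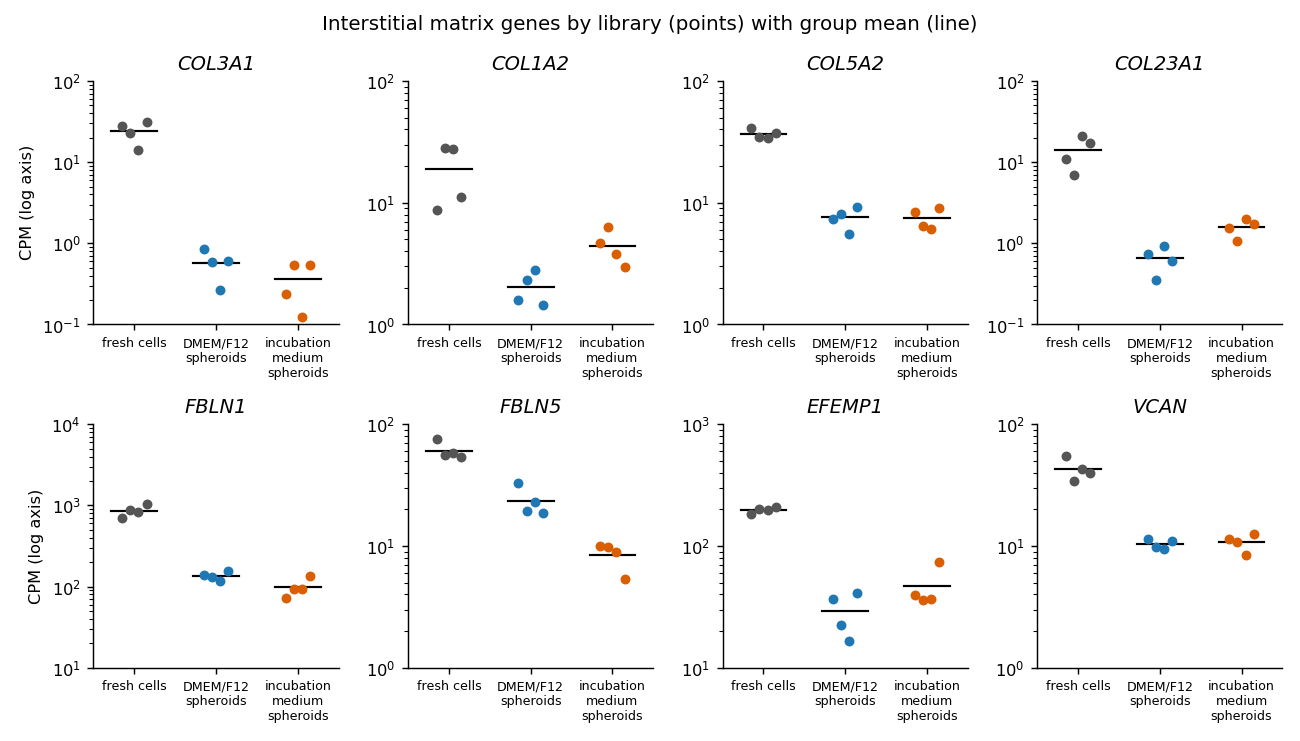
CPM on log axes of 8 matrix genes, among them the membrane-spanning collagen COL23A1, in each library (points, replicates 1 to 4 from left to right within a group) with the group mean as a line. Every spheroid library lies below every fresh cell library for all 8 genes; FBLN5 is lowest in incubation medium, COL1A2 and COL23A1 are lowest in DMEM/F12.

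Collagens outside the fibrils and the basement membrane fell or were not called. Of 12 rows 5 were tested, and 4 fell in each medium. COL23A1 (ENSSSCG00025067513), a membrane-spanning collagen, was at 10.97, 6.99, 20.8 and 17.1 CPM in fresh cells, 0.730, 0.348, 0.926 and 0.600 CPM in DMEM/F12 and 1.55, 1.07, 1.97 and 1.75 CPM in incubation medium. The 3 groups did not overlap, with DMEM/F12 lowest. No DMEM/F12 library held more than 7 counts of COL23A1 and no incubation medium library more than 16, so the size of these differences is uncertain. The falls were 21.1-fold (log2 fold change -4.40, SE 0.39, adjusted p = 1.67e-07) and 8.70-fold (log2 fold change -3.12, SE 0.34, adjusted p = 1.44e-06). Between the media COL23A1 was not called (1.28 on the log2 scale, adjusted p = 0.0585), and it was with the replicate block (1.27, adjusted p = 0.00570). COL14A1 (ENSSSCG00025006219), which decorates collagen fibrils, was at 97.3, 68.5, 106 and 95.7 CPM in fresh cells, 82.8, 42.9, 38.2 and 50.9 CPM in DMEM/F12 and 29.3, 24.3, 18.5 and 24.9 CPM in incubation medium. DMEM/F12 replicate 1 lay within the range of the fresh cells, and incubation medium was below both other groups. COL14A1 fell 1.71-fold (adjusted p = 0.00488) and 3.79-fold (adjusted p = 3.05e-06), and was 2.21-fold lower in incubation medium than in DMEM/F12 (log2 fold change -1.14, SE 0.22, adjusted p = 0.00200).

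COL12A1, also associated with fibrils, was at 54.0, 32.1, 26.4 and 21.4 CPM in fresh cells, 15.2, 12.4, 10.8 and 13.4 CPM in DMEM/F12 and 6.68, 14.8, 6.28 and 6.31 CPM in incubation medium. It fell 2.58-fold (adjusted p = 0.000818) and 3.95-fold (adjusted p = 4.64e-05). Incubation medium replicate 2 stood above the other 3 of its group; the media were not called different (-0.61, adjusted p = 0.176) but were without that library (-1.01, adjusted p = 0.0232). COL8A1, a short-chain collagen of vessel walls, fell from 1.96 ± 0.927 CPM to 0.421 ± 0.203 and 0.413 ± 0.119 (adjusted p = 0.000420 and 0.000390). COL13A1, another membrane-spanning collagen, was not called in any comparison, at 2.598 ± 1.93, 1.88 ± 0.404 and 2.76 ± 0.515 CPM.

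Elastic fibre glycoproteins mostly fell. Of 8 rows 6 were tested, and 5 of the 6 fell in each medium. FBLN1 (ENSSSCG00025060587), fibulin 1, a glycoprotein of elastic fibres and basement membranes, was at 696, 867, 821 and 1035 CPM in fresh cells. It was at 140.1, 132, 117 and 155 CPM in DMEM/F12 and 72.8, 94.5, 92.1 and 134 CPM in incubation medium, far below every fresh cell library. The falls were 6.29-fold (log2 fold change -2.65, SE 0.17, adjusted p = 8.81e-09) and 8.71-fold (log2 fold change -3.12, SE 0.17, adjusted p = 2.41e-09). Between the media FBLN1 was not called (-0.47, adjusted p = 0.0505). Among 16 alternatives, with adjusted p from 0.00220 to 0.134, it was called in 8, among them those with the replicate block (-0.50, adjusted p = 0.00220), without DMEM/F12 replicate 3 (-0.53, adjusted p = 0.0435) and without incubation medium replicate 4 (-0.65, adjusted p = 0.00518).

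FBLN5 (ENSSSCG00025001654), fibulin 5, which organises elastin, showed 3 separate levels. It was at 75.2, 56.1, 57.6 and 53.9 CPM in fresh cells, 32.6, 19.4, 23.0 and 18.7 CPM in DMEM/F12 and 9.90, 9.74, 8.86 and 5.37 CPM in incubation medium. FBLN5 fell 2.59-fold (adjusted p = 1.44e-05) and 7.14-fold (adjusted p = 2.88e-08), and incubation medium was 2.75-fold below DMEM/F12 (log2 fold change -1.46, SE 0.21, adjusted p = 0.000221). EFEMP1 (ENSSSCG00025069518), fibulin 3, was at 182, 202, 196 and 208 CPM in fresh cells, 36.9, 22.5, 16.4 and 41.2 CPM in DMEM/F12 and 39.3, 36.2, 36.9 and 74.0 CPM in incubation medium. Its falls were 6.72-fold (adjusted p = 5.73e-07) and 4.23-fold (adjusted p = 6.42e-06). The media were not called different for EFEMP1 (0.67, adjusted p = 0.0853), and they were with the replicate block (0.67, adjusted p = 0.0147) and without DMEM/F12 replicate 4 (0.88, adjusted p = 0.0395). FBLN2, fibulin 2, fell from 295, 269, 238 and 195 CPM to 74.2, 67.1, 17.3 and 60.6 in DMEM/F12 (4.54-fold, adjusted p = 0.000158) and 78.9, 64.2, 21.4 and 53.7 in incubation medium (4.57-fold, adjusted p = 0.000152). Replicate 3 was the lowest library in both media.

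FBLN7, fibulin 7, fell from 7.72 ± 3.15 CPM to 1.39 ± 0.668 and 0.770 ± 0.294 (adjusted p = 6.13e-05 and 8.34e-06). EFEMP2, fibulin 4, an elastin assembly protein, was not called, at 5.03 ± 1.07 CPM in fresh cells, 4.78 ± 2.14 in DMEM/F12 and 2.67 ± 1.69 in incubation medium. With the replicate block EFEMP2 was called lower in incubation medium than in fresh cells (-0.96, adjusted p = 0.00742) and than in DMEM/F12 (-0.87, adjusted p = 0.0246). VCAN (ENSSSCG00025059637), versican, a large proteoglycan of loose stroma and the 1 proteoglycan of this class with a matching symbol, was at 55.2, 34.1, 42.9 and 40.0 CPM in fresh cells. It was at 11.3, 9.84, 9.39 and 11.05 CPM in DMEM/F12 and 11.3, 10.7, 8.37 and 12.6 CPM in incubation medium, and fell 4.13-fold (adjusted p = 4.27e-08) and 4.01-fold (adjusted p = 5.43e-08).

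Few adhesion glycoproteins were called against fresh cells. Of 7 rows 4 were tested: 1 rose in DMEM/F12 and 2 fell in incubation medium, and 2 were lower in incubation medium than in DMEM/F12. SPARC (ENSSSCG00025037875), a collagen-binding matricellular protein, was at 417, 448, 411 and 452 CPM in fresh cells, 466, 448, 386 and 442 CPM in DMEM/F12 and 284, 278, 285 and 344 CPM in incubation medium. Incubation medium lay below both other groups, which overlapped. SPARC was not called in DMEM/F12 (log2 fold change 0.01, SE 0.09, adjusted p = 0.913) and fell in incubation medium against fresh cells (log2 fold change -0.54, SE 0.09, adjusted p = 7.15e-05) and against DMEM/F12 (log2 fold change -0.55, SE 0.09, adjusted p = 0.000472). THBS3 (ENSSSCG00025036262), a thrombospondin, was at 19.0, 17.4, 17.0 and 12.5 CPM, 26.2, 23.0, 23.4 and 24.3 CPM and 16.0, 14.1, 15.6 and 11.96 CPM in the same order of groups. It rose in DMEM/F12 (log2 fold change 0.55, SE 0.13, adjusted p = 0.00175), was not called in incubation medium (-0.20, adjusted p = 0.208) and was lower there than in DMEM/F12 (log2 fold change -0.75, SE 0.13, adjusted p = 0.000828). Without fresh cell replicate 4 THBS3 was called lower in incubation medium than in fresh cells (-0.30, adjusted p = 0.0418).

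THBS1, thrombospondin 1, an activator of latent TGF-beta, was at 384, 202, 168 and 192 CPM in fresh cells, 251, 199.7, 158 and 178 CPM in DMEM/F12 and 144, 149, 102 and 106 CPM in incubation medium. Fresh cell replicate 1 stood above every other library. THBS1 was not called in DMEM/F12 (-0.26, adjusted p = 0.322) and fell in incubation medium (log2 fold change -0.91, SE 0.23, adjusted p = 0.00290). Every incubation medium library was below every DMEM/F12 library, yet the media were not called different (-0.65, adjusted p = 0.0558). They were in 6 of 16 alternatives (adjusted p over the 16 from 9.27e-04 to 0.153), among them the replicate block (-0.64, adjusted p = 9.27e-04), DESeq2 (-0.65, adjusted p = 0.0281) and without DMEM/F12 replicate 3 (-0.74, adjusted p = 0.0472). FN1 (ENSSSCG00025023944), fibronectin, the ligand of the ITGA5 and ITGB1 pair, was not called in any comparison, at 10.01, 9.59, 11.8 and 12.4 CPM in fresh cells, 18.9, 12.5, 10.7 and 13.6 CPM in DMEM/F12 and 17.2, 7.81, 10.6 and 11.9 CPM in incubation medium. Counts of THBS1 and FN1 were fractional in 66.7% of libraries each.

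Lysyl oxidases, which crosslink collagen and elastin, rose or were not called. Of 4 rows 3 were tested, and 2 rose in each medium. LOXL4 (ENSSSCG00025076231), a lysyl oxidase-like enzyme, was at 1.91, 1.52, 2.80 and 2.55 CPM in fresh cells. It was at 83.6, 51.2, 41.0 and 45.9 CPM in DMEM/F12 and 53.9, 62.9, 60.9 and 61.8 CPM in incubation medium, all far above the fresh cells. The rises were 25.5-fold (log2 fold change 4.67, SE 0.27, adjusted p = 3.07e-09) and 27.5-fold (log2 fold change 4.78, SE 0.27, adjusted p = 2.41e-09). The media overlapped (0.11, adjusted p = 0.699); without DMEM/F12 replicate 1, the highest of its group, incubation medium was called higher (0.38, adjusted p = 0.0313). LOX, the founding enzyme of the family, had 5 counts over the 4 fresh cell libraries, 3 of them in replicate 2. It was at 3.16, 1.16, 1.46 and 3.60 CPM in DMEM/F12 and 3.34, 3.60, 3.82 and 5.91 CPM in incubation medium, above every fresh cell library. Scaled as for COL5A1, the ratio of summed counts to fresh cells was 10.2 (95% exact interval 4.21 to 32.5) and 18.0 (7.52 to 56.4). The rises were called (adjusted p = 0.000294 and 2.06e-05). Without fresh cell replicate 2 the fitted log2 fold changes of LOX moved from 3.26 to 4.07 and from 4.08 to 4.89. Between the media LOX was not called (0.82, adjusted p = 0.123) but was with the replicate block (0.85, adjusted p = 0.0393).

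LOXL1, linked to elastic fibre upkeep, was at 7.14, 8.79, 8.79 and 16.9 CPM in fresh cells, 9.85, 14.2, 11.9 and 31.0 CPM in DMEM/F12 and 2.98, 5.87, 6.77 and 18.3 CPM in incubation medium. Replicate 4 was the highest and replicate 1 the lowest in all 3 groups, and all groups overlapped. With all 12 libraries and no block, LOXL1 was not called in any comparison (0.70 in DMEM/F12, adjusted p = 0.206, -0.30 in incubation medium, adjusted p = 0.609, and -0.99 between the media, adjusted p = 0.143). With the replicate block it was called higher in DMEM/F12 than in fresh cells (0.65, adjusted p = 0.00332) and lower in incubation medium than in DMEM/F12 (-1.05, adjusted p = 2.85e-04). Without incubation medium replicate 4 the last difference was called too (-1.69, adjusted p = 0.0121).

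Some collagen hydroxylases (P4HA1, PLOD1 and PLOD2) were lower in DMEM/F12 spheroids than in both fresh cells and incubation medium spheroids. All 6 rows were tested: 1 rose and 3 fell in DMEM/F12, 1 fell in incubation medium, and 3 were higher and 1 lower in incubation medium than in DMEM/F12. P4HA1 (ENSSSCG00025076450), a catalytic subunit of prolyl 4-hydroxylase, was at 123, 118, 129.95 and 107 CPM in fresh cells, 24.8, 32.5, 40.0 and 30.1 CPM in DMEM/F12 and 40.2, 63.7, 52.9 and 96.0 CPM in incubation medium. The 3 groups did not overlap, with DMEM/F12 lowest. P4HA1 fell 3.75-fold (log2 fold change -1.91, SE 0.22, adjusted p = 2.17e-06) and 1.89-fold (log2 fold change -0.92, SE 0.21, adjusted p = 0.00113), and incubation medium was 1.98-fold above DMEM/F12 (log2 fold change 0.99, SE 0.21, adjusted p = 0.00392). PLOD2 (ENSSSCG00025024710), the lysyl hydroxylase of collagen telopeptides, was at 30.6, 30.7, 29.5 and 37.4 CPM, 14.7, 14.5, 16.1 and 16.3 CPM and 19.8, 33.0, 25.2 and 52.0 CPM in the same order of groups. It fell in DMEM/F12 (log2 fold change -1.05, SE 0.23, adjusted p = 0.000931), was not called in incubation medium (log2 fold change 0.02, SE 0.22, adjusted p = 0.953) and was 2.1-fold higher there than in DMEM/F12 (log2 fold change 1.07, SE 0.23, adjusted p = 0.00342).

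PLOD1, another lysyl hydroxylase, was at 26.5, 21.0, 26.2 and 22.6 CPM in fresh cells, 9.91, 13.1, 13.4 and 8.58 CPM in DMEM/F12 and 11.6, 20.6, 19.8 and 56.1 CPM in incubation medium. Incubation medium replicate 4 was far above the other 3 of its group. PLOD1 fell in DMEM/F12 (log2 fold change -1.09, SE 0.38, adjusted p = 0.0182), was not called in incubation medium (0.16, adjusted p = 0.700) and was higher there than in DMEM/F12 (log2 fold change 1.25, SE 0.37, adjusted p = 0.0227). Without incubation medium replicate 4 that difference shrank to 0.61 (adjusted p = 0.0475), and it was lost without DMEM/F12 replicate 1 (1.19, adjusted p = 0.0548) or 4 (1.14, adjusted p = 0.0648). The fall in DMEM/F12 was lost without DMEM/F12 replicate 4 (-0.96, adjusted p = 0.0530), and PLOD1 counts were fractional in 66.7% of libraries.

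P4HA3 (ENSSSCG00025003037), a further prolyl 4-hydroxylase subunit, rose instead. It was at 2.26, 2.601, 2.24 and 2.74 CPM in fresh cells, 14.7, 6.80, 9.39 and 7.74 CPM in DMEM/F12 and 3.34, 3.47, 3.63 and 4.43 CPM in incubation medium, with no overlap between any groups. P4HA3 rose 3.92-fold in DMEM/F12 (log2 fold change 1.97, SE 0.26, adjusted p = 8.78e-06), and incubation medium was 2.57-fold below DMEM/F12 (log2 fold change -1.36, SE 0.23, adjusted p = 0.000745). Its excess over fresh cells in incubation medium was not called (0.61, adjusted p = 0.0607) and was with only these groups in the fit (0.60, adjusted p = 0.0260). P4HA2 and PLOD3 were not called in any comparison: P4HA2 was at 139 ± 13.6 CPM in fresh cells, 142 ± 15.8 in DMEM/F12 and 135 ± 22.4 in incubation medium, and PLOD3 at 42.6 ± 5.26, 40.5 ± 2.73 and 43.9 ± 3.30. ITGB1BP1, an integrin cytoplasmic tail binding protein that the name rule took in, was at 18.9 ± 1.29, 21.9 ± 1.80 and 24.0 ± 2.16 CPM and rose in incubation medium (0.34, adjusted p = 0.00800). In DMEM/F12 it was not called (0.21, adjusted p = 0.0831), and it was without DMEM/F12 replicate 3 (0.27, adjusted p = 0.0379); its counts were fractional in 83.3% of libraries.

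**Figure D4:**
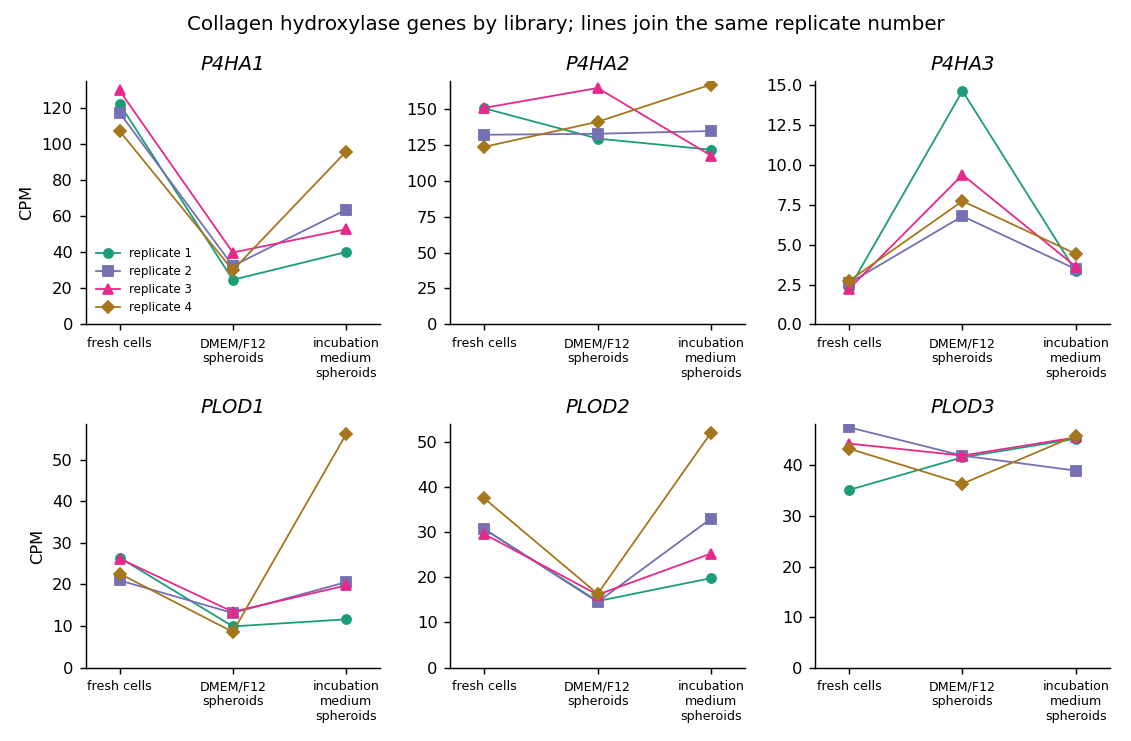
CPM of the 6 collagen hydroxylase genes in fresh cells and in spheroids of the 2 media, with a line joining the libraries of the same replicate number. P4HA1, PLOD1 and PLOD2 dip in DMEM/F12 and are higher in incubation medium, where replicate 4 is the highest library; P4HA3 peaks in DMEM/F12, and P4HA2 and PLOD3 were not called.

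Incubation medium spheroids were also compared directly with DMEM/F12 spheroids. Of the 47 genes 15 were called, 4 higher and 11 lower, which is 31.9% beside a background of 25.0% of all genes tested (12.7% higher and 12.3% lower). The 4 higher genes were P4HA1, PLOD1, PLOD2 and COL4A5. The 11 lower genes were the receptors ITGAV, ITGA2B, ITGB1, ITGB3 and ITGB5, the matrix genes COL4A1, COL14A1, FBLN5, SPARC and THBS3, and the enzyme P4HA3. At 2-fold or more 2 were higher and 5 lower, where the background was 2.06% and 3.38%. The 2 spheroid groups were separate for 16 genes, beside 27.0% of all genes tested. The median log2 fold change of the 47 was -0.23, beside -0.00347 for all genes tested.

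With the replicate number as a block, 24 of the 47 genes were called between the media, 8 higher and 16 lower, beside 32.8% of all genes tested. The genes added were COL1A2, COL23A1, EFEMP1 and LOX on the higher side and COL4A2, THBS1, FBLN1, EFEMP2 and LOXL1 on the lower side. Their values with the block are given above. The block changed 3 more calls, those of LOXL1 and ITGB5 in DMEM/F12 and EFEMP2 in incubation medium against fresh cells.

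The same replicate number held the same rank in several of these genes. Among the 47, replicates of 1 number were the highest library of their group in all 3 groups for 15 genes (31.9%), beside 15.4% of all genes tested, and the lowest in all 3 for 11 genes (23.4%), beside 14.7%. For 6 genes both held (12.8%, beside 2.93%): COL4A1, COL23A1, FBLN5, LOXL1, ITGAM and ITGB1BP1. COL4A1 was highest in replicate 1 and lowest in replicate 2 of every group, COL23A1 highest in 3 and lowest in 2, and FBLN5 highest in 1 and lowest in 4. ITGAM and ITGB1BP1 were highest in 2 and lowest in 3. These genes were picked out after their values were seen, the labels do not say what a number marks, and the source of the shared order was not tested.

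**Figure D5:**
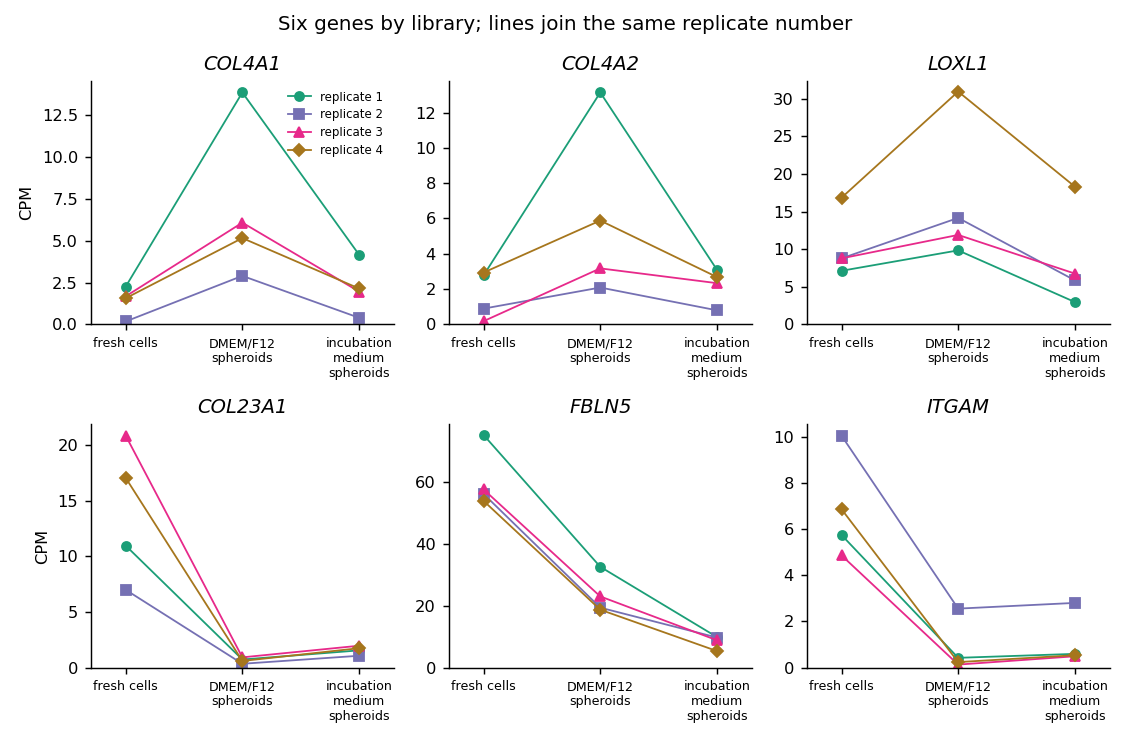
CPM of 6 genes in fresh cells and in spheroids of the 2 media, with a line joining the libraries of the same replicate number (COL4A2 is shown beside COL4A1 and did not keep 1 order). Replicate 1 is the top line for COL4A1 and FBLN5, replicate 4 for LOXL1, replicate 3 for COL23A1 and replicate 2 for ITGAM in every group.

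The other 19 genes did not pass the filter on low counts and were at most 4.70 CPM in any library. They included 8 collagens (COL2A1, COL6A1, COL6A2, COL6A6, COL9A2, COL9A3, COL10A1 and COL21A1) and the integrins ITGA11 and ITGB7. The rest were LAMC3, NID2, SPARCL1, POSTN, THBS4, FBN2, FBN3, LOXL3 and ITGB1BP2. For 6 of the 19 no library held more than 3 counts, and COL10A1, the collagen of hypertrophic cartilage, was at 0 in every library. POSTN, a matricellular protein of fibroblasts, was at 0, 0.717, 0.935 and 1.57 CPM in fresh cells and at most 0.132 CPM in any spheroid library. SPARCL1, a relative of SPARC, was at 3.83, 1.43, 0.374 and 0.784 CPM in fresh cells, above every spheroid library, and ITGB7, a leukocyte integrin subunit, was at 1.04, 1.97, 0.748 and 1.96 CPM in fresh cells with no overlap with either medium. COL9A2, a chain of type IX collagen, was highest in DMEM/F12, at 1.82, 0.813, 1.32 and 1.08 CPM, against 0.174, 0.0897, 0.187 and 0 CPM in fresh cells and 0, 0.400, 0.369 and 0.134 CPM in incubation medium, and DMEM/F12 overlapped neither. These genes were singled out after their values were seen. With no filter on low counts 65 of the 66 genes were tested, and 44, 37 and 18 were called in DMEM/F12, in incubation medium and between the media, beside 46.5%, 47.6% and 13.5% of all genes tested.

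Other genes of collagen making, matrix binding and matrix breakdown were counted from 4 lists of 72 genes, of which 47 had a row and 44 were tested. In DMEM/F12 31 of the 44 rose and 9 fell, and in incubation medium 27 rose and 8 fell, beside the backgrounds of 35.1% and 35.7%, and 35.8% and 35.8%. Between the media 5 were higher and 17 lower in incubation medium, beside 12.7% and 12.3%. Among components of the integrin adhesion complex 12 of 16 rose and 2 fell in DMEM/F12, and 11 rose and 3 fell in incubation medium. The actin crosslinker ACTN4 rose from 281 ± 30.7 CPM to 1596 ± 81.7 and 1052 ± 117, and FERMT1, the epithelial kindlin that activates integrins, from 78.0 ± 10.8 to 381 ± 88.3 and 326 ± 21.2. The signalling adaptor CRK went from 514 ± 34.9 to 599 ± 58.7 and 662 ± 39.0 CPM, called higher in both. Counts of ACTN4 were fractional in 50% of libraries and those of CRK in 75%.

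Among other matrix receptors and hemidesmosome genes, 6 of 7 rose and 1 fell in DMEM/F12, beside 35.1% and 35.7% of all genes tested. In incubation medium 4 rose and 1 fell, beside 35.8% and 35.8%. DDR1, a collagen receptor kinase of epithelia, rose from 321 ± 37.4 CPM to 461 ± 37.7 in DMEM/F12 and was at 346 ± 12.8 in incubation medium (adjusted p = 0.000140 and 0.290). CD151, a tetraspanin partner of laminin-binding integrins, rose from 103 ± 9.50 to 252 ± 13.4 and 195 ± 16.9 CPM, and CD47, an integrin-associated thrombospondin receptor, from 106 ± 6.96 to 191 ± 26.3 and 237 ± 38.8 CPM. Of 11 tested genes of collagen folding and processing, 5 rose and 5 fell in DMEM/F12, and 5 rose and 2 fell in incubation medium. The shares of all genes tested beside these counts are those given for the receptors. PPIB, a collagen prolyl isomerase, fell from 687 ± 103 CPM to 372 ± 18.1 and 554 ± 26.7, and COLGALT1, which glycosylates collagen, rose from 71.1 ± 6.26 to 111 ± 6.13 and 124 ± 6.60. P4HB, the partner subunit of the prolyl 4-hydroxylases, was not called in either medium, at 305 ± 16.7, 277 ± 15.8 and 375 ± 122 CPM.

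Of 10 tested genes of matrix remodelling 8 rose and 1 fell in DMEM/F12, beside 35.1% and 35.7% of all genes tested. In incubation medium 7 rose and 2 fell, beside 35.8% and 35.8%. The list was chosen with earlier results of these data known. PLAT, a plasminogen activator, was at 410.3, 404, 444 and 479 CPM in fresh cells, 575, 685, 596 and 538 CPM in DMEM/F12 and 2688, 2524, 2751 and 2682 CPM in incubation medium, which lay above all other libraries. The media differed 4.45-fold (log2 fold change 2.15, SE 0.09, adjusted p = 1.16e-08). TIMP1, a metalloproteinase inhibitor, rose from 129 ± 14.7 CPM to 778 ± 240.2 and 358 ± 54.0. TIMP2, a related inhibitor, rose from 193 ± 32.8 CPM to 713 ± 101 in DMEM/F12 (adjusted p = 5.75e-08) and was at 225 ± 40.1 in incubation medium (adjusted p = 0.181). Both inhibitors were lower in incubation medium than in DMEM/F12 (TIMP1 -1.12, adjusted p = 0.000400; TIMP2 -1.66, adjusted p = 5.19e-06).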

How the data were processed

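Polyadenylated RNA of 12 libraries was sequenced from the 3′ end. Per the labels' protocols, cells were lysed in DNA/RNA Shield and oligo-dT primed cDNA was tagmented, indexed and amplified. The submitters' processing notes name fastp 0.24.0, STAR 2.7.11, SAMtools 1.22.1 and featureCounts of Subread 2.1.1; the genome build, strand setting and treatment of shared reads are not given in the sources used here, so a gene and its antisense partner cannot be told apart. The authors deposited expected counts per gene, per the file headers and the values, of which 19.1 to 20.5% of nonzero entries per library were not whole. They also deposited CPM, which equalled counts over library totals and was not used. The 92 rows of ERCC spike-in identifiers, 0.000285 to 0.000614% of counts, were left out. The design allowed for counts that are not whole, and these were rounded.

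One edgeR 4.0.16 fit (R 4.3.3, limma 3.58.1) of all 12 libraries kept genes passing filterByExpr, scaled by TMM and ran quasi-likelihood F-tests, adjusted by Benjamini-Hochberg over 14070 genes, called under 0.05. SE is the log2 fold change over the root of F. The biological coefficient of variation was 0.146. The tests were tried on simulated data first. Alternatives were other scalings, DESeq2 1.42.0, other filters, only the compared groups, rounding down, a replicate block and leaving out each library. Samples with the same replicate number deviated together (correlations 0.196 to 0.513 across genes for same-numbered libraries of 2 groups, -0.318 to 0.0181 for others). The labels do not say what a number marks; the main fit has no block and its p-values are unpaired, and values with the block are printed where they change a call. No 2 libraries of a group were alike within sampling noise (chi-square over its degrees of freedom 5.61 to 16.1).

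Named were the 4 most abundant tested genes of each role and, in each comparison, the 5 largest called rises and falls at a mean of at least 5 CPM; the other 5 tested genes (COL8A1, COL11A1, FBLN7, EFEMP2 and ITGAM) were added after their values were seen. From each pathway list the 3 most abundant were named. The values of 1 tested gene are not reported here; it stays in the counts over the 47. The members, roles and lists were chosen with earlier results of these data known. None of the 66 identifiers matched the available pig gene tables (0 found), so names come from the deposited table, no positions or sequences are given, and the RefSeq table of Sscrofa11.1 (65 symbols found) served only for neighbours.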

Additional observations from a re-analysis of the deposited data

Results flagged for a closer look

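Single libraries stood apart from the other 3 of their group in 13 of 121 checks (Dixon's gap test, 41 genes and 3 groups, leaving out groups under 3 counts). Chance flags about 1 in 20 groups. Incubation medium replicate 4 was apart for EFEMP1 (74.0 CPM, nearest 39.3) and SPARC (344 CPM, nearest 285). Incubation medium replicate 2 was apart for COL12A1 (14.8 CPM, nearest 6.68) and PLOD3 (39.0 CPM, nearest 45.3), and replicate 1 for ITGB5 (43.2 CPM, nearest 33.5). DMEM/F12 replicate 3 was apart for LAMC1 (156 CPM, nearest 117) and ITGB3 (105 CPM, nearest 72.1). DMEM/F12 replicate 4 was apart for PLOD3 (36.4 CPM, nearest 41.6) and ITGA2B (63.3 CPM, nearest 60.9). In fresh cells replicate 1 was apart for THBS1 (384 CPM, nearest 202), replicate 3 for ITGB1BP1 (17.0 CPM, nearest 19.4) and replicate 4 for PLOD2 (37.4 CPM, nearest 30.7) and LOXL1 (16.9 CPM, nearest 8.79). Beyond single flags, incubation medium replicate 4 was the highest of its group for 20 of the 47 tested genes (42.6%, beside 29.8% of all genes tested) and DMEM/F12 replicate 1 for 21 (44.7%, beside 25.9%). Fresh cell replicate 4 was the highest of its group for 19 (40.4%, beside 25.0%).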

How the results depend on the processing

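Of 126 fold changes of named genes (42 genes in 3 comparisons), 101 kept their side of the threshold under every alternative run, and no called one changed sign. Values that were not called could change sign, as COL13A1 in DMEM/F12 did (-0.74 to 0.15). The other 25 lost a call in 27 alternatives and gained one in 39. Over the libraries left out in turn, the genes called ranged from 34 to 36 in DMEM/F12 against fresh cells (higher 14 to 16, lower 20 to 21), from 31 to 33 in incubation medium (10 higher in each, lower 21 to 23) and from 14 to 17 between the media (higher 3 to 4, lower 10 to 13). The medians ranged from -0.39 to -0.11, -0.56 to -0.32 and -0.29 to -0.17. With a mean of at least 10 counts the median in DMEM/F12 was -0.10, with 45 genes tested. With the replicate block 24 genes were called between the media in place of 15, 8 of them higher in place of 4 and 16 lower in place of 11; it moved no other count over the 47 genes by over 1.5 times. By role, the block took the elastic fibre genes lower in incubation medium than in DMEM/F12 from 1 to 3 and the basement membrane collagens from 1 to 2. It called 1 gene where none was called before: higher in the fibrillar, other collagen and elastic fibre groups and, among lysyl oxidases, 1 in each direction. DESeq2 called 19 genes between the media in place of 15, adding COL1A2 (1.13, adjusted p = 0.0321), COL23A1 (1.30, adjusted p = 0.0360), THBS1 (-0.65, adjusted p = 0.0281) and FBLN1 (-0.47, adjusted p = 0.0265). Library totals in place of TMM moved the median of all genes between the media to -0.10. Depth limits the 19 untested genes and those near 3 counts in a group.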

Other observations

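COL1A1, the partner chain of COL1A2 in type I collagen, was left out of the 66 genes. It was at 22.8, 37.5, 16.3 and 48.0 CPM in fresh cells, 28.5, 21.95, 6.88 and 30.5 CPM in DMEM/F12 and 2.62, 2.14, 1.48 and 7.52 CPM in incubation medium. Between the media COL1A1 was lower in incubation medium (log2 fold change -2.69, SE 0.53, adjusted p = 0.00199), while the value for COL1A2 was 1.12 on the log2 scale (adjusted p = 0.0758). The log2 ratio of COL1A2 to COL1A1 was 0.55 ± 1.24 in incubation medium and -3.13 ± 1.35 in DMEM/F12 (SD, n = 4), a difference of 3.68 (exact two-sided permutation p = 0.0571, 0.129 adjusted over 3 comparisons, smallest possible 0.0286). In fresh cells it was -0.77 ± 1.217 (exact permutation p = 0.0857 for DMEM/F12 and 0.171 for incubation medium against them). Paired by replicate number, the ratio was lower in DMEM/F12 than in fresh cells in 4 of 4 pairs (by -2.71 to -1.97) and higher in incubation medium in 4 of 4 (by 0.49 to 2.13). It was higher in incubation medium than in DMEM/F12 in 4 of 4 pairs, by 2.47 to 4.75. The exact sign-flip permutation p was 0.125 in each, also adjusted over 3 comparisons, which is the smallest that 4 pairs allow. The ratio and its pairing were chosen after seeing the data.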
